A study of Mus musculus with 6 samples.

Results

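Rag1 and Rag2 encode both subunits of the recombinase that cuts DNA at antigen receptor loci. In the authors' deposited table of genes changed by tamoxifen, 3 of 251 rows carry one of these symbols, 1 probe set for Rag1 (10485372) and 2 for Rag2 (10474105 and 10485370), out of 35557 probe sets on the arrays. The table listed changes of at least 1.503-fold with p no higher than 0.0451, so the treatment contrast itself chose these rows. Their levels and changes are therefore given as a description, with no p-value of their own from the tests made here. The cells were a mouse pro-B line transformed by Abelson murine leukaemia virus, called an Abelson B cell line in the labels. All 6 cultures carried a retrovirus encoding Gfi1b, a zinc finger repressor, fused to the oestrogen receptor domain that holds proteins inactive until ligand is added. The untreated group of 3 arrays (MINUS OHT, source name Wt, although the sample descriptions give it the fusion as well) received no tamoxifen, and the tamoxifen group of 3 arrays (PLUS OHT, source name Gfi1b overexpressed) was kept in tamoxifen for 12 h. Whether the line was a single clone is not stated in the labels, and no array of tamoxifen-treated cells without the fusion was analysed here, so tamoxifen and the active fusion cannot be told apart.

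RAG1 carries the catalytic residues of the recombinase and binds the recombination signal sequences beside V, D and J segments, while RAG2 is its required partner and carries a PHD finger that binds trimethylated histone H3 lysine 4. Both genes lie close together on mouse chromosome 2 in opposite orientation and are switched on together in pro-B and pre-B cells, under enhancers and factors that include FoxO1, E2A, Ikaros and Pax5. In v-Abl-transformed pro-B lines the kinase holds Rag transcription low, and the level differs between lines.

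The RefSeq start-site windows of both genes (GRCm38.p6, from 250 bases before to 50 after the start) are shown because they are the promoters of the transcripts whose signal moved together. The Rag1 window is chr2:101649483-101649782 on the minus strand and the Rag2 window is chr2:101624462-101624761 on the plus strand, each written 5′ to 3′ on the gene's own strand, with matches to the searched motifs in capitals.
Rag1: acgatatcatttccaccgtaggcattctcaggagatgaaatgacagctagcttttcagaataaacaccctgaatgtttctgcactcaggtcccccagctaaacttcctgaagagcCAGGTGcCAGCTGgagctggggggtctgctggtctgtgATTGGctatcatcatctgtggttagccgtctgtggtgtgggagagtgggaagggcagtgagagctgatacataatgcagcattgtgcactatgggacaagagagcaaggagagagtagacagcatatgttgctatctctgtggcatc
Rag2: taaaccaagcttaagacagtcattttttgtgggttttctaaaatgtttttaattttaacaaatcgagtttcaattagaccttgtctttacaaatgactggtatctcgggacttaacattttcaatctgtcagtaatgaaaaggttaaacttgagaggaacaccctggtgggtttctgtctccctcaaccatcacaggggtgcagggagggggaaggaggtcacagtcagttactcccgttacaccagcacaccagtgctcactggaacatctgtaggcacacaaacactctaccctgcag
Both strands were searched for AAATCA, a sequence found within Gfi1 and Gfi1b sites, and for TGTTTAC of FoxO proteins. They were also searched for a first E-box of E proteins spelled CAGCTG, a second spelled CAGGTG, and the CCAAT box. E-boxes with other spellings were not searched for in either window, so the matches below cover only these spellings. The Rag1 window held 1 match to the second E-box, 1 to the first and, on the opposite strand, 1 to the CCAAT box, beginning at positions -135, -128 and -97, where -1 is the base before the start site. None of these matches overlapped. The Rag2 window held 0 matches to all 5, and neither window held AAATCA or TGTTTAC. Other spellings of FoxO sites were not searched for, so the absence of such sites is not shown. The shorter AATC within AAATCA was not among the searched motifs. It can be read in the Rag2 window and, on the opposite strand, in the Rag1 window. Among 32817 windows of the same length, AAATCA was present in 14% and TGTTTAC in 3.65%. The first E-box was present in 16.3%, the second in 20.2% and the CCAAT box in 37.4%. G and C made up 50% of the Rag1 window and 43% of the Rag2 window.

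The main difference between the arrays did not follow treatment alone, and replicate 2 stood apart. Component 1 of the 6 arrays, with 45.9% of the variance, placed untreated replicates 1 and 3 at 30.6 and 26.5, tamoxifen replicates 1 and 3 at -26.5 and -23.4, and the untreated and tamoxifen arrays of replicate 2 at -9.71 and 2.58. Array medians lay between 7.52 and 7.61 (log2), and the median change over all probe sets was -0.01. The medians were 7.61 and 7.60 in untreated replicates 1 and 3, and 7.54 and 7.52 in tamoxifen replicates 1 and 3. In replicate 2 the order was reversed, with 7.53 untreated and 7.56 with tamoxifen. The part of these shifts in the Rag change was not tested. The arrays number 3 a group, which limits the precision of every value. Of 15 pro-B cell markers, 2 had a name here. Both were bright, namely Cd79b, a chain of the B cell receptor (11.70 ± 0.054 untreated, log2, SD, n = 3), and the adaptor Bank1 (11.05 ± 0.14, n = 3). The other 13 were not analysed here. Cd79b and Bank1 came from a table chosen on change with tamoxifen, so they are no check of the cell type label. With tamoxifen they moved in opposite directions, Cd79b by a log2 difference of 0.65 ± 0.073 (SE; limma adjusted p = 0.021) and Bank1 by one of -0.84 ± 0.082 (limma adjusted p = 0.015). With 1 array left out, both passed only without untreated replicate 2, and their part in the Rag change was not tested. Of 16 markers of T, myeloid, erythroid and megakaryocyte cells, 3 had a name, the lysozymes Lyz1 and Lyz2 and the kinase Zap70. The summed signal of these 3 lay between 9.10 and 9.21 in untreated and between 10.01 and 10.22 in tamoxifen arrays (log2 of the sum), and 0 of the 3 were at 0. It moved with treatment as the Rag signals did, in the opposite direction, and its part in their change was not tested.

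The comparison of tamoxifen with untreated cultures asks whether Rag transcript levels move when Gfi1b is activated. Rag1 read 11.21, 11.47 and 11.34 in untreated replicates 1, 2 and 3 and 9.15, 9.08 and 8.96 in tamoxifen replicates 1, 2 and 3 (log2 signal). The untreated values were all higher, and the groups did not overlap: the lowest untreated value stood 2.06 above the highest tamoxifen value, while neither group spanned more than 0.26. The means were 11.34 ± 0.13 and 9.06 ± 0.095 (SD, n = 3 each), a log2 difference of -2.28 with a limma standard error of 0.089. On the linear scale Rag1 fell 4.84-fold, to 20.7% of the untreated signal. It stayed above the array median on all 6 arrays, tamoxifen included. Its fall was number 3 in size among all 35557 probe sets. In these bulk samples, fewer cells with the transcript and less transcript per cell cannot be told apart.

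Rag2 had its brighter readout in probe set 10474105, which gave 8.55, 8.93 and 8.69 in untreated replicates 1, 2 and 3. With tamoxifen the same probe set gave 6.84, 6.84 and 6.99. The groups again did not overlap, with a gap of 1.56 against a span of at most 0.38 within a group, and the signal went from above the array median on all 3 untreated arrays to below it on all 3 tamoxifen arrays. The means were 8.72 ± 0.19 and 6.89 ± 0.088 (SD, n = 3 each), a log2 difference of -1.83 ± 0.11 (SE). Rag2 thus fell 3.56-fold by this probe set, to 28.1% of the untreated signal, number 13 in size among all falls.

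The dimmer Rag2 probe set, 10485370, gave 5.89, 6.30 and 6.26 in untreated replicates 1, 2 and 3. Its tamoxifen values were 5.45, 5.48 and 5.35. Here too every tamoxifen value lay below every untreated one, but the gap of 0.41 was about as wide as the untreated group's own span of 0.41. The means were 6.15 ± 0.23 and 5.43 ± 0.066 (SD, n = 3 each), a log2 difference of -0.72 ± 0.12 (SE). On 5 of 6 arrays the signal lay below the lower quartile of all probe sets, and with no background value used here the size of this change is uncertain.

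**Figure D1:**
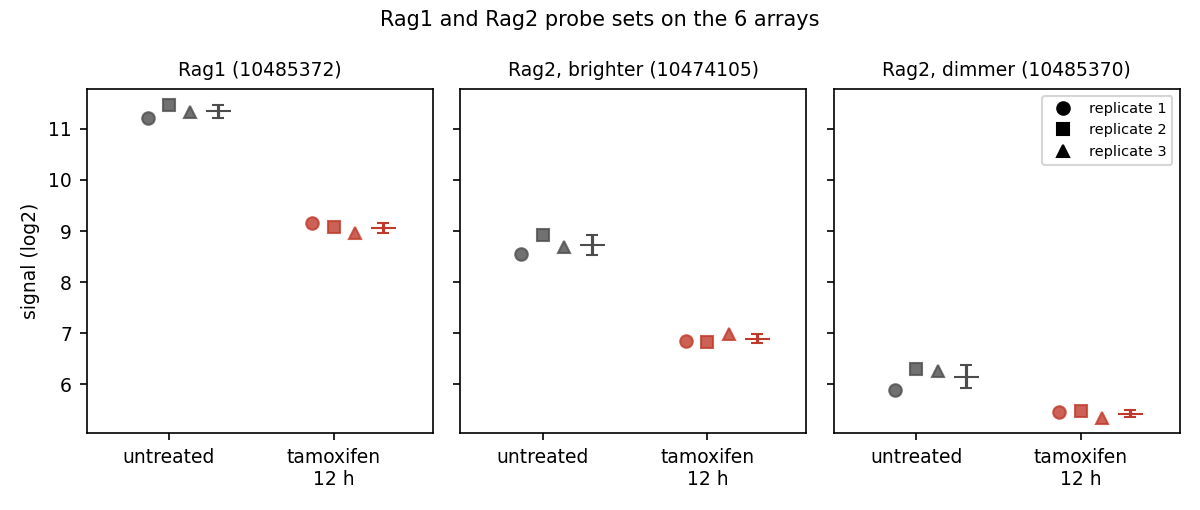
Signal (log2, vertical axis) of the Rag1 probe set and both Rag2 probe sets in untreated and tamoxifen cultures; each symbol is 1 array, shaped by replicate number, and the bar beside each group is its mean ± SD (n = 3). The groups do not overlap in any of the 3 panels, and the difference between group means shrinks from -2.28 for Rag1 to -1.83 and -0.72 for the brighter and the dimmer Rag2 probe set.

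Falls of this size were rare on the arrays. A fall of 2-fold or more was measured in 0.118% of all probe sets and in 2 of the 3 Rag probe sets, and one of 1.5-fold or more in 0.529% and in all 3. Tamoxifen values that all lay below the untreated values, as in all 3, were found in 7.78% of all probe sets. By limma, with p-values adjusted over all probe sets by the Benjamini-Hochberg method, 0.456% were called lower at 0.05 and 0.433% higher, and Rag1 and the brighter Rag2 probe set were among those called lower, while the dimmer was not. Nothing is read from these counts, since the rows came from a table chosen on this contrast. The authors' deposited table gave signed folds of -4.86 for Rag1 (p = 1.59e-05), -3.56 for the brighter Rag2 probe set (p = 0.000113) and -1.64 for the dimmer (p = 0.00654). Among the 149 falls of the authors' deposited table these stood at places 3, 11 and 98. At its edges, the authors' deposited table had P4ha1, a prolyl hydroxylase, as the smallest fall with a name (-1.503) and Ctss, the lysosomal protease cathepsin S, as the largest (-7.09). Outside it, 18 probe sets had a log2 difference at least as low as that of the dimmer Rag2 probe set.

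**Figure D2:**
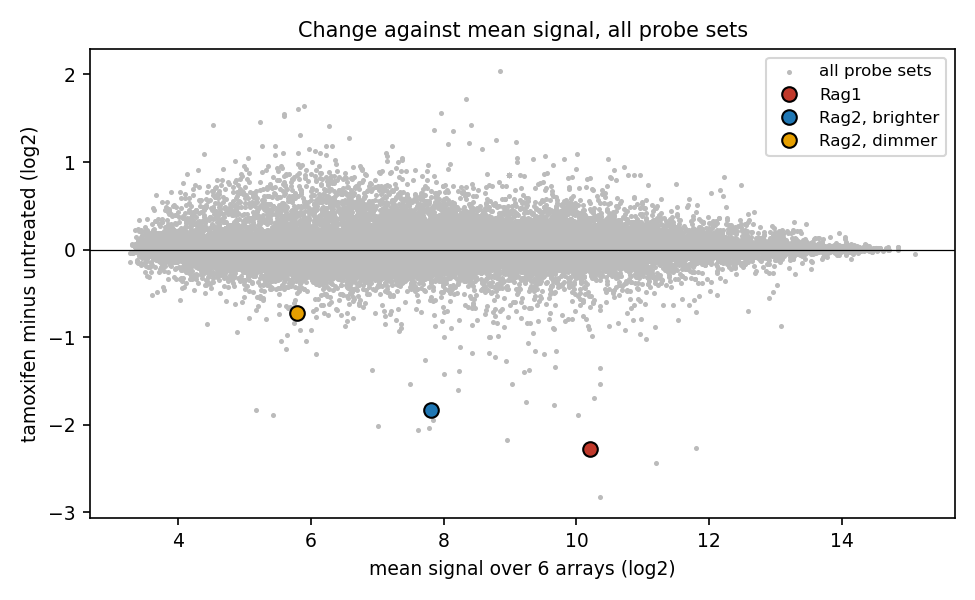
Tamoxifen minus untreated (log2, vertical axis) against the mean signal over 6 arrays (log2, horizontal axis) for all 35557 probe sets in grey, with the Rag probe sets marked. Rag1 at -2.28 and the brighter Rag2 probe set at -1.83 lie well below the grey cloud, and the dimmer Rag2 probe set at -0.72 lies at its lower edge on the dim side.

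The measured changes of the 3 probe sets differed in size. Levels of different probe sets cannot be set against each other, but the distance between a pair of them on the same array can be followed across arrays. Rag1 minus the brighter Rag2 probe set was 2.66, 2.54 and 2.65 in untreated replicates 1, 2 and 3 and 2.30, 2.24 and 1.97 with tamoxifen (log2). The distance was thus shorter on every tamoxifen array, by 0.45 in the mean (2.62 ± 0.064 to 2.17 ± 0.18, SD, n = 3 each). By these signals Rag1 dropped a further 1.36-fold. With tamoxifen the brighter Rag2 probe set lay below the array median on all 3 arrays, while Rag1 stayed above it. With no background value used here, the size of this fold is uncertain. The brighter minus the dimmer Rag2 probe set went from 2.57 ± 0.12 to 1.46 ± 0.15 (SD, n = 3 each), a change of -1.11. No fold is given for it, since the dimmer signal lay low on the arrays and no background value was used here. These differences come from the contrast that chose the rows and were not tested.

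Within the untreated group the 3 probe sets had the same order, with replicate 2 highest and replicate 1 lowest. That order was held by 20.7% of all probe sets. Within the tamoxifen group the orders differed, with replicate 1 highest for Rag1, replicate 3 for the brighter and replicate 2 for the dimmer Rag2 probe set. Without both arrays of replicate 2 the log2 differences were -2.22, -1.70 and -0.67. With 1 array left out at a time, Rag1 ranged from -2.34 to -2.21, the brighter Rag2 probe set from -1.92 to -1.73 and the dimmer from -0.85 to -0.64. Leaving out untreated replicate 1, the lowest untreated array for each, gave the lowest log2 difference for all 3.

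**Figure D3:**
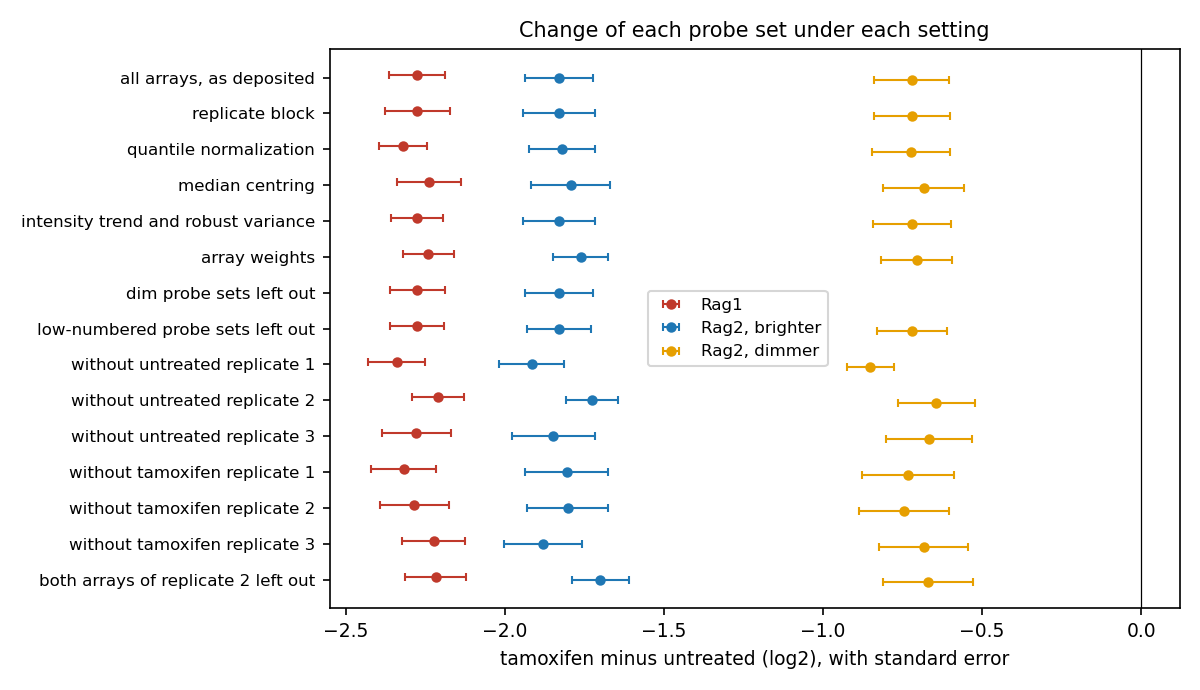
Tamoxifen minus untreated (log2, horizontal axis) for each Rag probe set under each processing setting (vertical axis), with limma standard errors as bars. The 3 probe sets keep separate ranges, Rag1 from -2.34 to -2.21 and the dimmer Rag2 probe set from -0.85 to -0.64, and the dimmer has no point where dim probe sets were left out.

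The number of the dimmer Rag2 probe set, 10485370, is the one next below that of Rag1, 10485372, among the probe sets on the arrays, and far from that of the brighter, 10474105. Probe set numbers were therefore set beside the RefSeq strand of the named genes. On chromosome 2 the 13 other rows with a known strand split cleanly: the 8 genes of the plus strand, among them the brighter Rag2 row, had numbers up to 10478973, and the 5 of the minus strand, Rag1 included, had numbers from 10481092 upward. With 1 dividing number fitted per chromosome, 175 of 176 rows on 18 chromosomes followed such a split. The dimmer Rag2 row is numbered in the minus-strand range although Rag2 lies on the plus strand. In RefSeq, Iftap, a gene for a protein that associates with intraflagellar transport, lies on the minus strand and overlaps Rag2, and Rag1 is the next protein-coding gene on the other side. The files do not state which strand or transcript 10485370 reads, and the name Rag2 for it is the authors'.

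The unnamed probe sets with the nearest numbers showed smaller differences. The one numbered next below the dimmer Rag2 probe set, 10485361, went from 5.83 ± 0.14 to 5.41 ± 0.15 (SD, n = 3 each), a log2 difference of -0.43 ± 0.11 (SE) with groups that did not overlap, and was not called by limma. The one next above Rag1, 10485378, had a log2 difference of 0.01 ± 0.057 (SE). On either side of the brighter Rag2 probe set, 10474102 and 10474112 had log2 differences of 0.19 ± 0.15 and -0.10 ± 0.057 (SE). The groups of 10474112 did not overlap either, and 7.78% of all probe sets had tamoxifen values all below the untreated ones. None of the 5 genes that flank Rag1 and Rag2 in RefSeq on a fixed list (Iftap, Traf6, Commd9, Prr5l and Ldlrad3) had a name in the table, so their levels were not analysed here. Beyond Iftap, the next protein-coding gene on that side is Lrrc4c, for a synaptic adhesion protein, which was not on the list and is named here because its row (10474096) is in the table. Lrrc4c read 7.50, 7.77 and 7.38 in untreated replicates 1, 2 and 3 and 6.94, 6.68 and 6.84 with tamoxifen. Its tamoxifen values were all lower, and its log2 difference of -0.73 ± 0.12 (SE) did not pass (limma adjusted p = 0.063). Among the alternatives of the closing section, Lrrc4c passed with an intensity trend and robust variance and with array weights. It also passed without dim probe sets and without low-numbered ones, but in 0 fits with 1 array left out.

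The named genes whose pattern over the 6 arrays was most like that of Rag1 were found by the root mean square difference of the log2 values, each probe set's own mean taken off. Gimap4, a lymphocyte GTPase, was closest (0.097), followed by the secreted protein Crisp1 (0.12), the scavenger receptor Cd36 (0.15), the B cell Fc receptor-like protein Fcrl1 (0.21), the G protein regulator Rgs18 (0.24) and Rag2 (0.25). The brighter Rag2 probe set was number 8 among the 35556 other probe sets in likeness to Rag1, and the dimmer number 98. Gimap4 went from 12.42 to 9.99, a log2 difference of -2.43 ± 0.066 (SE), and Crisp1 from 10.04 to 7.86, one of -2.17 ± 0.15. For the brighter Rag2 probe set the closest were P2ry10, a receptor for lysophospholipids (0.088), Rgs18 (0.090), the TNF receptor family member Tnfrsf19 (0.12), the immunoglobulin-like receptor Milr1 (0.13), Cd36 (0.17) and the carboxypeptidase Cpm (0.17). P2ry10 went from 10.11 to 8.37 with a log2 difference of -1.74 ± 0.071 (SE). Rag1 was number 15 in likeness to the brighter Rag2 probe set. Seen from the dimmer Rag2 probe set, whose own difference was small, Rag1 was number 35153 and the brighter Rag2 probe set number 33284 among the others. Cd36 averaged 6.01 with tamoxifen and was then dim. This measure is set mostly by the size of the difference between the groups.

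**Figure D4:**
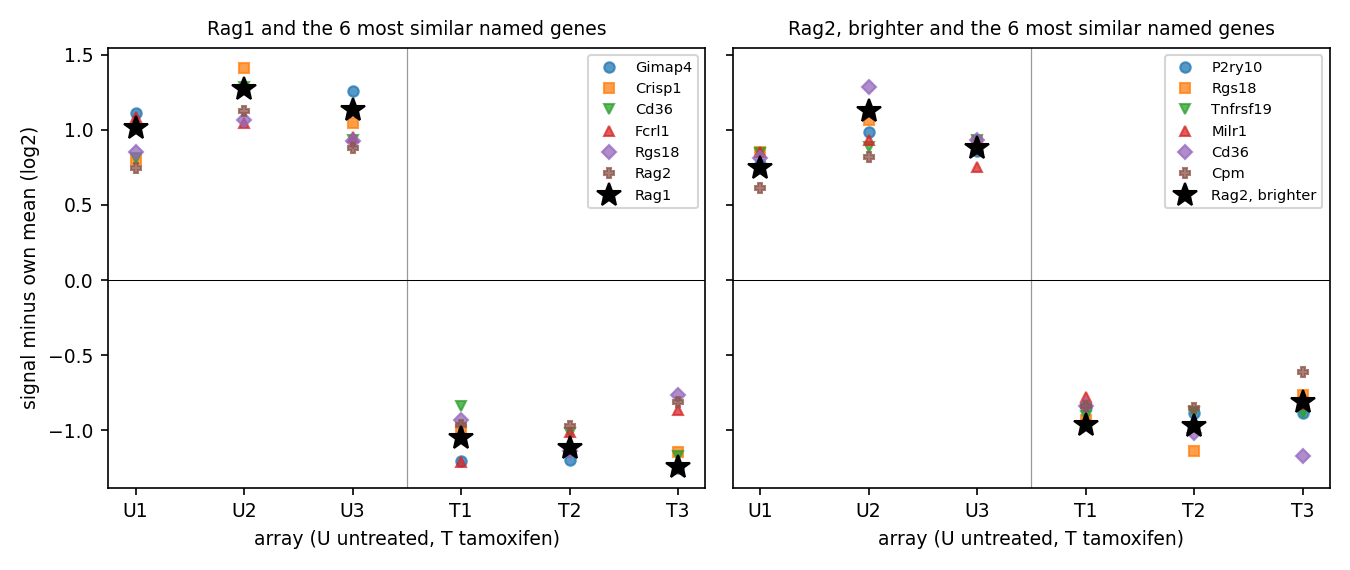
Signal minus each probe set's own mean (log2, vertical axis) on untreated (U) and tamoxifen (T) arrays 1 to 3, for Rag1 and for the brighter Rag2 probe set (stars) with the 6 named genes closest to each. All points lie above 0 on the untreated and below 0 on the tamoxifen arrays, and Rag2 lies nearer to 0 than Rag1 on every array.

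Other genes of the pathway were counted from fixed lists, against a table in which 45.4% of rows were called lower and 27.1% higher by limma. Of 21 genes for cutting and rejoining DNA at antigen receptor loci, Rag1 and Rag2 were the 2 with a name, and the other 19 were not analysed here. Of 34 regulators of Rag transcription, 5 had a name, of which 3 were called higher, 1 lower and 1 neither. Their median log2 difference was 0.63, beside -0.63 over all 225 named genes and -0.01 over all probe sets. Because the table was chosen for change on these arrays, these counts are not independent evidence about the list. Gfi1b and Foxo1 were among the 29 regulators not analysed here.

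Ikzf3, the Ikaros family member Aiolos, read 7.93, 8.16 and 8.01 in untreated replicates 1, 2 and 3 and 8.68, 8.62 and 8.69 with tamoxifen. Its tamoxifen values were all higher, and it rose by a log2 difference of 0.63 ± 0.075 (SE; limma adjusted p = 0.025). Tcf7, the T lineage factor TCF-1, rose from 7.43, 7.48 and 7.38 to 8.33, 8.23 and 8.26, a log2 difference of 0.85 ± 0.059 (SE; limma adjusted p = 0.006). Each group spanned little beside the distance between them. Spib, an Ets factor of B cells related to PU.1, read 9.56, 9.71 and 9.31 untreated and 10.55, 10.30 and 10.49 with tamoxifen. It rose by a log2 difference of 0.92 ± 0.12 (SE; limma adjusted p = 0.031), with groups that did not overlap. Tamoxifen values that all lay above the untreated values were found in 10.5% of all probe sets.

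Rel, the NF-kB subunit c-Rel, fell from 10.27, 10.41 and 10.32 to 9.65, 9.56 and 9.69, a log2 difference of -0.70 ± 0.067 (SE; limma adjusted p = 0.014). Among the 5 regulators with a name, it was the one that moved in the same direction as Rag1 and Rag2, and the other 29 were not analysed. Id2, which blocks E proteins from binding DNA, read 8.69, 9.22 and 8.72 untreated and 9.52, 9.47 and 9.54 with tamoxifen. Its groups did not overlap, but untreated replicate 2 lay nearer to the tamoxifen arrays than to the other untreated ones, and its log2 difference of 0.63 ± 0.15 (SE) did not pass (limma adjusted p = 0.14). Of the regulators, Tcf7 passed whichever of the 6 arrays was left out. Among these 6 fits, Ikzf3, Spib and Rel passed only in the one without untreated replicate 2, and lost their call without untreated replicate 1 or 3 or tamoxifen replicate 1, 2 or 3. Id2 passed without untreated replicate 2 and in none of the other 5.

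**Figure D5:**
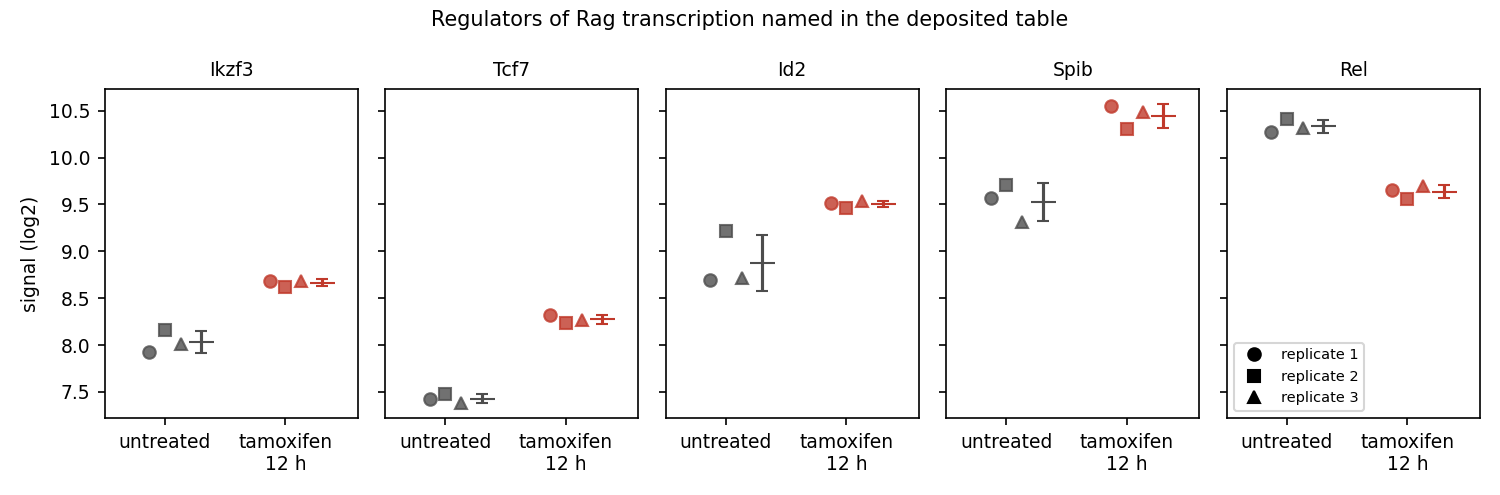
Signal (log2, vertical axis) of the 5 regulators of Rag transcription with a name, in untreated and tamoxifen cultures; symbols are arrays by replicate number and bars are mean ± SD (n = 3). Ikzf3, Tcf7, Id2 and Spib are higher and Rel lower on every tamoxifen array, and Id2 in untreated replicate 2 lies close to its tamoxifen values.

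Rag1 and Rag2 also stand on a list of 19 FoxO target genes, of which 4 had a name and all 4, of which Rag1 and Rag2 are 2, were called lower by limma. In the same table of chosen changes 45.4% of rows were called lower, and nothing is read from the count. Of the other 2, Trp53inp1, a stress and autophagy protein, had a log2 difference of -0.79 ± 0.074 (SE; limma adjusted p = 0.014) and the sestrin Sesn3 one of -0.83 ± 0.12 (limma adjusted p = 0.048), both smaller than those of Rag1 and of the brighter Rag2 probe set. With 1 of the 6 arrays left out at a time, Trp53inp1 passed in 2 fits, those without untreated replicate 1 or 2, and Sesn3 in 0. Sesn3 also lost its call with arrays centred on their medians (limma adjusted p = 0.068).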

How the data were processed

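Biotin-labelled total RNA was read on 6 arrays of 1 colour, per the labels' protocols. The deposited values were log2 expression per probe set, used as deposited. Per the submitters' processing notes, Partek was used, in a role not stated. How the authors corrected, summarised and normalized the signals, on which array design and build, was not given in the sources used here. Each of the 251 rows of the authors' deposited table had a p-value and a signed fold, a score that is negative for falls. Its largest difference from the log2 differences here was 0.021. Its test is not stated.

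Arrays were grouped and numbered by their titles, which add an A to untreated 1 and tamoxifen 2 without saying what it means. p-values measure the spread between these cultures, described by the submitters as biological replicates. Differences were fitted with limma 3.58.1 in R 4.3.3 (lmFit and eBayes, 2 groups, no covariate), with Benjamini-Hochberg adjustment over 35557 probe sets at 0.05. In simulated data on these 35557 probe sets, with arrays drawn independently, 76.4% of 2-fold and 97% of 4-fold changes were recovered and 5.04% of calls were false. Of the table's rows, 200 were matched to RefSeq (GRCm38.p6) by accession, 13 by symbol and 19 by synonym, and 19 were unmatched. A listed gene was represented by its probe set with the highest mean, while the Rag2 probe sets were kept apart. Named genes were all Rag1 and Rag2 probe sets, list members with a name, the 6 named genes most similar to Rag1 and to the brighter Rag2 probe set, predicted genes passed over, and the edges of the table. 1 list gene is not reported here. The housekeeping list had 0 of 8 members with a name. The members and lists were chosen with earlier results of these data known. RefSeq promoter windows matched both genes by symbol. Replicate numbers were checked for pairing: for numbers 1, 2 and 3, the deviations of both arrays from their group means had correlations of -0.229, -0.45 and -0.0957. Alternatives are described in the closing section. Plots were made in Python 3.11.15 with matplotlib 3.10.9.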

Additional observations from a re-analysis of the deposited data

How the results depend on the processing

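The log2 difference of Rag1 stayed between -2.34 and -2.21 in 14 alternatives and that of the dimmer Rag2 probe set between -0.85 and -0.64 in 13. That of the brighter Rag2 probe set lay between -1.92 and -1.70 in 14, and averaging both Rag2 probe sets gave -1.28. None reversed, which shows little for probe sets chosen on this contrast. The dimmer passed the limma threshold in 4 of 14 fits. These were the fits with an intensity trend and robust variance, with array weights, without the low-numbered probe sets and without untreated replicate 1. Nothing is read from these calls, since the contrast chose the row. Calls over all probe sets, 162 lower and 154 higher, moved further. They were 311 and 410 when eBayes used an intensity trend and robust variance, and 376 and 814 when arrays were weighted. Without the 6667 probe sets numbered below the table's lowest they were 308 and 332. Leaving out both arrays of replicate 2 gave 85 and 247. Lower calls were 309 with quantile normalization and 104 with median centring, and higher calls were 270 without dim probe sets. With 1 array left out, lower calls ranged from 28 to 136 and higher from 9 to 278, and called regulators of Rag transcription, 4 with all arrays, from 1 to 5. Leaving out untreated replicate 2 gave the most of each, and leaving out any other array left 1 regulator called. Why these counts moved was not tested. Arrays with the same replicate number had negatively correlated deviations from their group means. So few correlations cannot settle whether the arrays were paired, and both arrays of replicate 2 stood apart on component 1. With the replicate block, 16 lower and 6 higher probe sets and 0 regulators were called, and neither Trp53inp1 nor Sesn3 passed (limma adjusted p = 0.14 and 0.24). In this balanced design the block leaves each difference as it is, -2.28 for Rag1 with a standard error of 0.10, and -1.83 for the brighter Rag2 probe set with one of 0.11. No background values were used, so the limit set by dim signal is unknown.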
